A study of Bos taurus with 6 samples.

Results

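Cell junction genes were read from the 96 of 43794 array probes whose platform gene symbol is a claudin (CLDN), cadherin (CDH), ZO protein (TJP) or connexin (GJA, GJB, GJC, GJD) followed by a number, or OCLN, F11R, JAM2, JAM3, CTNNA1, CTNND1, JUP, DSP, PKP2 or EPCAM. These probes stand for 69 of the 15229 genes named on the array. Of the 96 probes, 66 probes of 50 genes passed the filter on dim probes, and 24 probes of 18 genes exceeded the negative control spots in both channels of all 6 arrays. The study compared 3 superstimulated beef cows (group 1) with 3 non-superstimulated beef cows (group 4, the reference) on 6 two-channel oligonucleotide arrays. Superstimulation means repeated gonadotropin doses, under which more follicles of an ovary go on growing than in a natural cycle. All cows were multiparous, and the labels give gonadotropins as the hormone treatment of both groups; they give no age and no tissue. Cow 1 of one group shared an array with cow 1 of the other, as did cows 2 and 3, and each pair was hybridised again with the dyes exchanged, so that n was 3 pairs.

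Neighbouring cells are joined by several kinds of junction. Tight junctions seal the gap between cells through claudins, occludin and junctional adhesion molecules, which ZO proteins tie to actin inside the cell. Adherens junctions hold cells together through cadherins and the catenins bound to them. Desmosomes do so through desmosomal cadherins, which plaque proteins tie to keratin filaments inside the cell. Gap junctions are channels of connexins that pass ions and small molecules. In the ovarian follicle, gap junctions couple granulosa cells with each other and with the oocyte, with GJA1 as the main connexin between granulosa cells.

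Every ratio below is a log2 ratio of superstimulated over non-superstimulated by the dye fields of the arrays. The example in the design text gives the opposite dyes, which would turn every sign, so that the direction is unsettled in the sources used here. A level is a log2 intensity of 1 probe in 1 cow, averaged over its 2 arrays, and is compared between cows, never between probes. Arrays 1 to 3, with the superstimulated cow in Cy5, shared a slide, as did arrays 4 to 6, so that slide and dye orientation cannot be told apart. Over all probes the median intensity was 152 to 299 in red and 161 to 283 in green, and precision is limited by there being 6 arrays. Of the 96 junction probes, 34 to 52 exceeded the negative controls in the red channel of an array and 56 to 67 in the green channel. Among the probes tested, the ratios of the 2 arrays of a swap correlated across probes, which are no independent replicates, at 0.0373 in pair 1, 0.723 in pair 2 and 0.575 in pair 3. Across the 66 junction probes these correlations were 0.473, 0.663 and 0.755.

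No junction probe passed the test for a difference between the 2 groups of cows. With limma over 31957 probes, 0 probes passed an adjusted p of 0.05 for the mean of the 3 pairs, so the background was 0% and the count of junction probes was 0 of 66. The lowest adjusted p was 0.999 for junction probes and for all probes. The unadjusted p was under 0.05 for 4 junction probes, or 6.06%, all of them lower. Of all probes, 3.25% had such a p, 1.74% lower and 1.52% higher. These were 2 probes of CTNND1 and 1 each of JAM3 and CDH3. The median mean ratio over the 66 probes was 0.00186, with 33 above and 33 below 0, beside -0.00938 over all probes tested.

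What the junction genes did show was unequal ratios in the 3 cow pairs. The error here is the disagreement of swapped arrays, a technical error that carries no information on further cows. By it, 19 of 66 junction probes differed between pairs by limma's F test at an adjusted p of 0.05. That is 28.8%, below the 40.3% of all probes tested. Among probes above the negative controls everywhere it was 12 of 24 junction probes, or 50%, beside 63%. The junction probes were therefore called no more often than the array at large. Of the 19, EMBV3_11864 of CDH11 and the CDH17 probe passed the filter on dim probes through the group where they are higher, so that their calls support nothing. The plot of pair ratios shows all 19 probes.

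The single-pair calls given below depended on the processing. Of 39 such calls, 30 held with median centring in place of loess and 9 in the authors' deposited values. Those 9 were CLDN11 in pairs 1 and 3, CDH2 in pair 2 on both bright probes and in pair 3 on EMBV3_06148, F11R in pair 3, CDH12 in pair 2, CDH24 in pair 3 and CTNNA1 in pair 3. Each of the other 30 was lost in the deposited values.

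**Figure D1:**
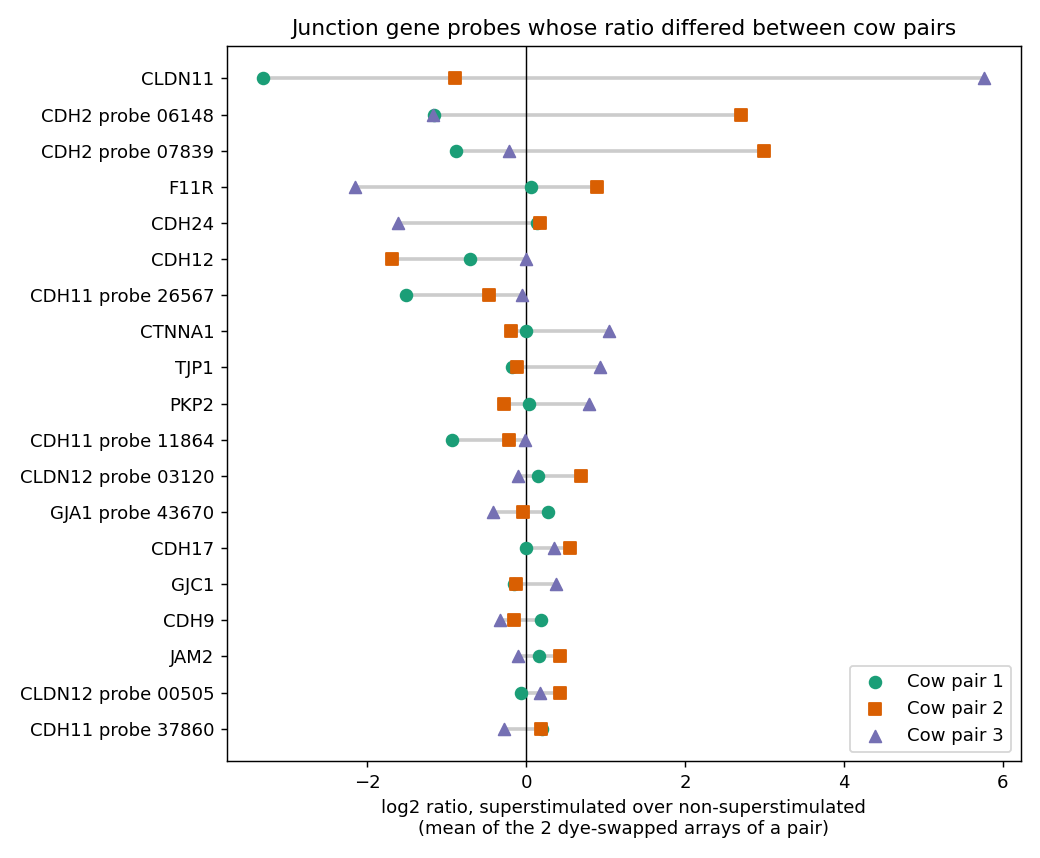
Log2 ratio of superstimulated over non-superstimulated in each cow pair (horizontal axis) for the 19 junction probes that differed between pairs, ordered by their range. Points are the mean of the 2 arrays of a dye swap and grey lines span the 3 pairs; CLDN11 runs from -3.31 in pair 1 to 5.77 in pair 3, and both CDH2 probes stand at 2.70 and 3.00 in pair 2 alone.

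Among the transmembrane proteins of tight junctions, CLDN11 had the widest range. This claudin forms the tight junctions of Sertoli cells in the testis and of myelin. Its level was 8.69, 11.84 and 15.16 in superstimulated cows 1, 2 and 3 and 12.00, 12.74 and 9.39 in the non-superstimulated cows. Superstimulated cow 1 held the lowest level of the 6 and superstimulated cow 3 the highest, so that the non-superstimulated cows lay inside the range of the others. The ratio was -3.25 and -3.38 on the 2 arrays of pair 1, -1.06 and -0.74 in pair 2, and 6.79 and 4.76 in pair 3. It fell in pair 1 (-3.31, limma's adjusted p = 0.00366) and rose in pair 3 (5.77, adjusted p = 4.43e-05), whereas pair 2 at -0.90 did not pass (adjusted p = 0.119). The mean of 0.52 ± 4.71 (SD, n = 3 pairs) averaged these opposite ratios, and without pair 3 it was -2.11.

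The 5 probes of other genes with pair ratios nearest to those of CLDN11, by Euclidean distance over the 3 pairs, were GFRA1 at a distance of 1.45, NUDT11 at 1.66, ASB9 at 1.96, STAT4 at 2.17 and PTX3 at 2.38. GFRA1, the coreceptor for GDNF, had -4.61, -0.25 and 5.75 in pairs 1, 2 and 3. PTX3, a secreted pattern recognition protein, had -2.08, -0.59 and 3.76. The choice of these probes by distance fixes their likeness.

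CLDN12, a claudin that lacks the usual motif for binding ZO proteins, rose in pair 2 on both of its probes, with 0.69 (adjusted p = 0.00221) and 0.43 (adjusted p = 0.00925). On its brighter probe the level was 10.70, 11.54 and 10.32 in superstimulated cows 1, 2 and 3 and 10.56, 10.85 and 10.43 in the others. Superstimulated cow 2 was the highest of the 6 cows and superstimulated cow 3 the lowest. CLDN5, the main claudin of endothelium, had 0.07, 0.32 and 0.07 and passed in pair 2 (adjusted p = 0.0334, but 0.0833 with median centring), although its difference between pairs did not pass (adjusted p = 0.245).

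CLDN14, a claudin known from the inner ear and the kidney, followed dye orientation and slide, which cannot be told apart. Its ratio was -2.021, -0.997 and -0.073 on arrays 1 to 3 and 1.86, 2.30 and 2.24 on arrays 4 to 6. The pair values were -0.08, 0.65 and 1.08, of which pair 3 passed (adjusted p = 0.0101). Every value of 1 slide lay below 0 and every value of the other above it, and the term for dye and slide was -1.58 (adjusted p = 0.000896 by limma). Such a term passed for 23 of 66 junction probes and for 35.1% of all probes.

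The other claudins that were tested had pair ratios from -0.24 (CLDN23, pair 1) to 0.32 (CLDN5, pair 2). Of 29 claudin probes for 20 genes, 22 probes for 19 genes passed the filter on dim probes and 7 probes for 6 genes exceeded the negative controls everywhere: CLDN4, CLDN11, CLDN15, CLDN16, CLDN17 and both probes of CLDN12. CLDN4, an epithelial claudin, had -0.14, -0.14 and 0.13 in pairs 1, 2 and 3. CLDN1, another epithelial claudin, had -0.05, 0.26 and 0.25, and its pair 2 and pair 3 values missed the threshold (adjusted p = 0.0601 and 0.0523). CLDN3 and CLDN7 exceeded the negative controls on at most 3 of 6 arrays in the superstimulated channel and 2 in the other. CLDN18 did so on none.

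F11R, also known as junctional adhesion molecule A, rose in pair 2 and fell in pair 3. Its level was 7.89, 8.51 and 7.91 in superstimulated cows 1, 2 and 3 and 7.83, 7.62 and 10.06 in the non-superstimulated cows. Non-superstimulated cow 3 stood apart from the other 5 cows, which lay between 7.62 and 8.51. The ratio was 0.02 and 0.11 in pair 1, 0.85 and 0.94 in pair 2, and -2.31 and -1.99 in pair 3. Pair 2 at 0.90 had an adjusted p of 0.000344 and pair 3 at -2.15 an adjusted p of 1.1e-05 by limma. Another probe of F11R exceeded the negative controls on none of the superstimulated and 1 of the non-superstimulated channels and was not tested.

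JAM2 and JAM3 encode junctional adhesion molecules B and C, which bind each other across cells. JAM2 had 0.16, 0.42 and -0.10, and only its pair 2 value passed (adjusted p = 0.0103). With median centring that value was 0.19 (adjusted p = 0.403) and the difference between pairs was lost (adjusted p = 0.647). The 3 probes of JAM3 had -0.50, -0.32 and -0.41 in pair 3 (adjusted p = 0.00812, 0.0343 and 0.00942). With median centring the first and second were -0.28 and -0.10 and did not pass (adjusted p = 0.0789 and 0.491). In pair 2 they had -0.06, -0.59 and 0.03, so that the probes of this gene differed by 0.62 there, and only the second passed (adjusted p = 0.00316). OCLN, the gene of occludin, exceeded the negative controls in 1 channel of 1 array, so that its level could not be compared.

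TJP1 encodes ZO-1, the scaffold under tight junctions. Its level was 13.48, 13.35 and 13.95 in superstimulated cows 1, 2 and 3 and 13.66, 13.46 and 13.02 in the others. The extremes were the 2 cows of pair 3, where the ratio rose to 0.93 (adjusted p = 0.000496), while pairs 1 and 2 had -0.18 and -0.12. The mean of 0.21 ± 0.62 (SD, n = 3 pairs) was -0.15 without pair 3. TJP3 exceeded the negative controls in 1 channel of 1 array.

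**Figure D2:**
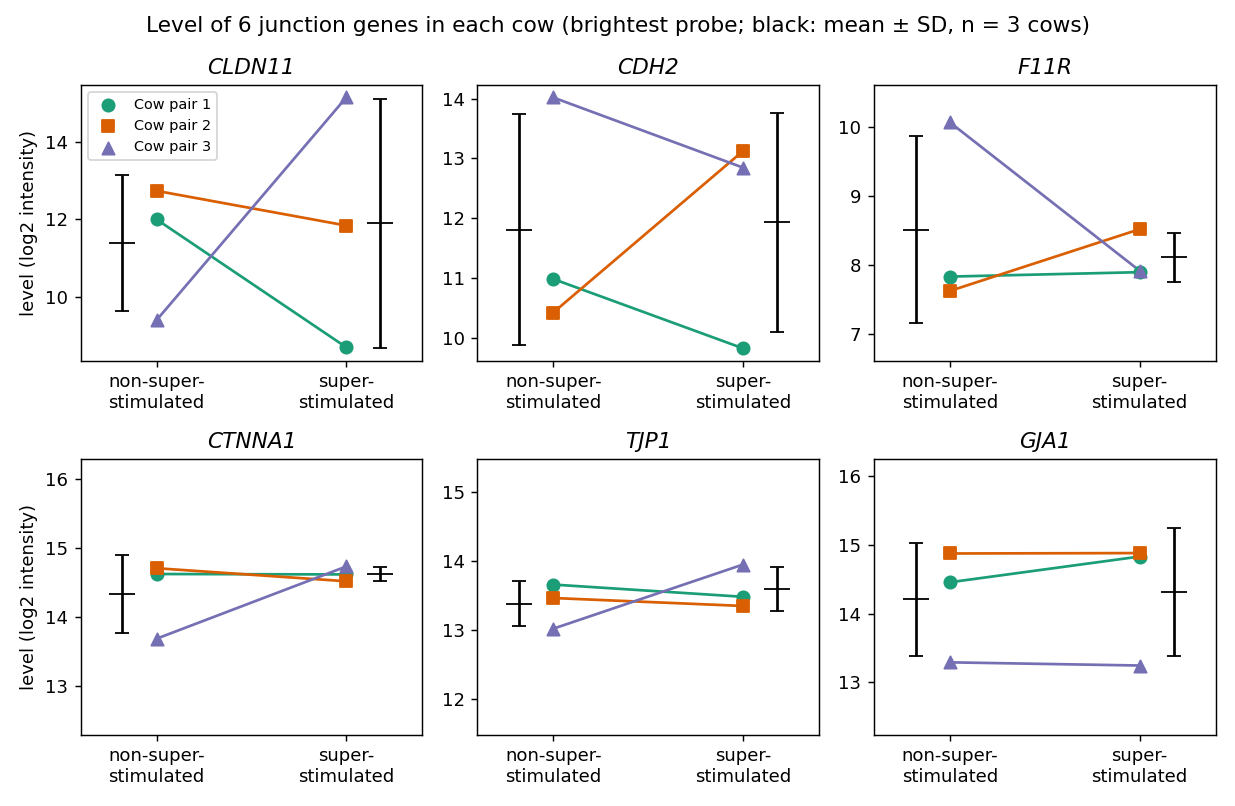
Level in log2 intensity (vertical axis, a separate scale per panel) of the brightest probe of CLDN11, CDH2, F11R, CTNNA1, TJP1 and GJA1 in each cow; coloured lines join the cows of a pair and black bars give the mean ± SD of 3 cows. The lines of CLDN11, CDH2 and F11R cross, with CLDN11 at 8.69 to 15.16 in superstimulated cows, while GJA1 stays level within each pair.

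Of the cadherins, the adhesion receptors of adherens junctions, CDH2 (N-cadherin, the form of granulosa and neural cells) differed most. On its brightest probe, EMBV3_06148, the level was 9.82, 13.12 and 12.85 in superstimulated cows 1, 2 and 3 and 10.98, 10.42 and 14.02 in the non-superstimulated cows. Both cows of pair 3 stood high, and in pair 2 only the superstimulated cow did, so that the groups overlapped. The ratio rose in pair 2, with 2.77 and 2.63 on its arrays (adjusted p = 1.58e-05), and fell in pairs 1 and 3, with -1.16 and -1.17 (adjusted p = 0.00417 and 0.000508).

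A second bright CDH2 probe, EMBV3_07839, had -0.88, 3.00 and -0.21, and its fall passed in pair 1 (adjusted p = 0.00438) but not in pair 3 (adjusted p = 0.147). The third, EMBV3_14850, exceeded the negative controls in 3 of 6 channels of each group and had -0.08, -0.004 and 0.19. The mean of the brightest probe was 0.12 ± 2.23 (SD, n = 3 pairs) and -1.17 without pair 2. These 2 bright probes moved alike in pairs 1 and 2, and the dim probe did not share their ratio.

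CDH11, a cadherin of mesenchymal cells, gave probes that disagreed. EMBV3_26567 fell to -1.52 in pair 1 (adjusted p = 0.000347) and -0.46 in pair 2 (adjusted p = 0.00682), with -0.05 in pair 3. EMBV3_11864 had -0.93, -0.22 and -0.02. EMBV3_37860, the only one above the negative controls everywhere, had 0.21, 0.19 and -0.28, of which pair 3 passed (adjusted p = 0.0321, but 0.115 with median centring). The probe EMBV3_11864 exceeded the negative controls in none of the 6 superstimulated channels and in 3 of the 6 others, so that its ratio has no firm size.

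CDH12, a brain cadherin, fell in pair 1 and pair 2. Its level was 10.67, 10.22 and 9.39 in superstimulated cows 1, 2 and 3 and 11.37, 11.91 and 9.39 in the others. The ratio was -0.67 and -0.74 in pair 1, -1.85 and -1.54 in pair 2, and 0.18 and -0.19 in pair 3. The pair 3 cows shared the lowest level of the 6. The mean was -0.80 ± 0.85 (SD, n = 3 pairs), with an adjusted p of 0.999, and was -0.36 without pair 2 and -1.20 without pair 3.

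CDH24 fell in pair 3 at -1.61 (adjusted p = 0.00474), but its arrays gave -3.14 and -0.08 there, so that the value rests on array 3. CDH17, an intestinal and liver cadherin, had -0.002, 0.56 and 0.35 in pairs 1, 2 and 3 and exceeded the negative controls in 4 of 6 superstimulated and 1 of 6 other channels. CDH3 (P-cadherin, a form of epithelium and placenta) had 1 sign on all 6 arrays, from -0.45 to -0.14, and its fall passed in pairs 2 and 3 (-0.36 in both, adjusted p = 0.0242 and 0.0189). With median centring its pair 3 ratio was -0.09 and did not pass (adjusted p = 0.526).

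CDH1, the E-cadherin of epithelium, exceeded the negative controls in 1 of 6 superstimulated channels and in none of the others. CDH5, the cadherin of endothelium, did so in 3 and 4 of 6 and had 0.07, -0.09 and -0.05. Of 29 cadherin probes for 23 genes, 17 probes for 13 genes were tested, and 9 probes for 6 genes differed between pairs, where 40.3% of all probes did. These genes were CDH2, CDH9, CDH11, CDH12, CDH17 and CDH24. The 9 probes include that of CDH17 and EMBV3_11864 of CDH11, whose calls support nothing, as said above.

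Catenins join cadherins to the cytoskeleton. CTNNA1, alpha-catenin, the link to actin, had levels of 14.62, 14.52 and 14.74 in superstimulated cows 1, 2 and 3 and 14.63, 14.71 and 13.69 in the others. Non-superstimulated cow 3 was the lowest, and the other 5 cows lay between 14.52 and 14.74. The ratio rose in pair 3, with 1.22 and 0.88 on its arrays (adjusted p = 0.000139), and was -0.01 and -0.19 in pairs 1 and 2.

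CTNND1, p120 catenin, which keeps cadherins at the cell surface, had 1 sign on all 6 arrays on its brighter probes. Its brightest probe, EMBV3_34448, had -0.27, -0.65 and -0.52 in pairs 1, 2 and 3 and EMBV3_19426 had -0.27, -0.70 and -0.52. Their means were -0.48 ± 0.19 and -0.50 ± 0.22 (SD, n = 3 pairs), and both fell in pairs 2 and 3 against the error of the swap (adjusted p from 0.00101 to 0.0198). With median centring the pair 3 ratio of EMBV3_34448 was -0.23 and did not pass (adjusted p = 0.0644). Levels of the brightest probe were 11.99, 11.30 and 12.62 in superstimulated cows and 12.26, 11.95 and 13.13 in the others, so that the lower cow of each pair was the superstimulated one while the groups overlapped on this probe. On EMBV3_19426, which exceeded the negative controls in 5 of 6 superstimulated channels, the levels were 7.569, 6.947 and 7.565 against 7.838, 7.650 and 8.085. Its mean ratio did not pass (adjusted p = 0.999 by limma).

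The other 2 probes of CTNND1 that were tested did not share this ratio. EMBV3_35321 and EMBV3_07400 had means of -0.03 and 0.005, and exceeded the negative controls in 2 of 6 superstimulated channels each. One sign on all 6 arrays was found for 4 junction probes, all of them lower, or 6.06%. Of all probes 5.5% had 1 sign, 2.75% lower and 2.76% higher. The others beside CTNND1 were CDH3 and EMBV3_26689 of JAM3, which had a mean of -0.30 ± 0.22 (SD, n = 3 pairs).

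Of the desmosome genes, PKP2, a plaque protein also found at other cadherin junctions, rose in pair 3. Its level was 6.99, 6.84 and 7.90 in superstimulated cows 1, 2 and 3 and 6.95, 7.12 and 7.12 in the others. Superstimulated cow 3 was the highest, with a ratio of 0.65 and 0.92 on its arrays (0.79, adjusted p = 0.00291). JUP, plakoglobin, which serves both adherens junctions and desmosomes, had 0.14, -0.20 and -0.12 and did not pass in any pair. DSP, desmoplakin, exceeded the negative controls in 1 channel of 1 array.

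GJA1, the best known connexin of granulosa cells, was bright and had nearly equal levels within pairs. On its brightest probe, EMBV3_34634, the level was 14.83, 14.88 and 13.25 in superstimulated cows 1, 2 and 3 and 14.45, 14.87 and 13.29 in the others. Both cows of pair 3 lay below the other 4 cows, which were between 14.45 and 14.88. The pair ratios were 0.37, 0.01 and -0.05, none of which passed (adjusted p = 0.194, 0.99 and 0.828), with a mean of 0.11 ± 0.23 (SD, n = 3 pairs). The arrays of a swap disagreed in sign, with 0.92, 0.26 and 0.60 on arrays 1 to 3 and -0.18, -0.25 and -0.69 on arrays 4 to 6.

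The other GJA1 probe, EMBV3_43670, had levels of 9.64, 9.78 and 7.80 in superstimulated cows and 9.36, 9.83 and 8.23 in the others, with the cows of pair 3 lowest again. Its ratio was 0.28, -0.04 and -0.42, and its fall passed in pair 3 (adjusted p = 0.0133), but with median centring it was -0.22 (adjusted p = 0.0916). A GJA1 difference between the groups was thus not detectable on either probe. The 5 probes nearest to the brightest GJA1 probe in pair ratios were those of CXCL14, FIBP, APCDD1, DEFB4 and TMOD2, at distances of 0.047 to 0.067, and all lay within the same small ratios near 0.

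GJB5, a connexin known from mouse skin and placenta, had 2 probes above the negative controls in both channels of all 6 arrays, with 0.08, 0.08 and -0.20 on EMBV3_38723 and -0.02, -0.002 and 0.22 on EMBV3_35763. None of these values passed. Apart from GJA1 and GJB5, no connexin had a probe above the negative controls in every channel. GJC1 rose in pair 3 at 0.38 (adjusted p = 0.0102), with -0.15 and -0.12 in pairs 1 and 2. GJA4, in mouse the connexin between oocyte and granulosa cells, exceeded the negative controls in 5 of 6 channels of each group and had 0.05, -0.04 and -0.09, none of which passed. GJB2, an epithelial connexin, had 0.05, 0.19 and 0.10 on its brighter probe. GJA5, a connexin of vessels and heart, exceeded the negative controls in no channel. Of 18 connexin probes for 14 genes, 13 probes for 9 genes were tested. Of these, 2 differed between pairs, 1 each of GJA1 and GJC1, where 40.3% of all probes did. Neither difference passed limma's F test in the deposited values (adjusted p = 0.682 and 0.632).

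EPCAM, an adhesion molecule of epithelial cells, had -0.12, -0.09 and -0.02 on the probe that was tested, which exceeded the negative controls in 3 of 6 superstimulated and 5 of 6 other channels. Its other probe did so in 1 channel of 1 array. Among genes typical of epithelial junctions, CDH1, EPCAM, CLDN3, CLDN7, OCLN and DSP were at or near the negative controls, while CLDN4 and F11R each had a probe above them in both channels of all 6 arrays. So had CDH2, CLDN11, GJA1, JAM2, TJP1, CTNNA1 and CTNND1.

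**Figure D3:**
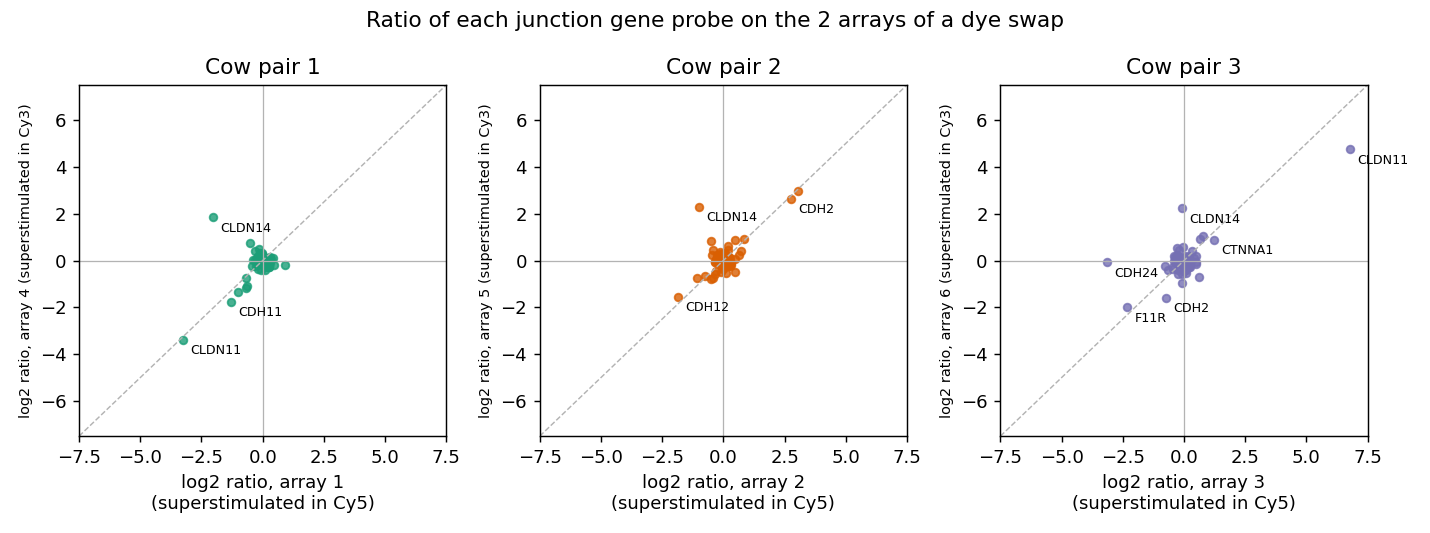
Log2 ratio of each of the 66 junction probes on the array with the superstimulated cow in Cy5 (horizontal axis) and in Cy3 (vertical axis), 1 panel per cow pair; the dashed line marks equal ratios. CLDN11, CDH2, CDH12 and F11R keep their sign on both arrays in the pairs where they are far from 0. CLDN11 lies off the line in pair 3, with 6.79 and 4.76, and CLDN14 lies off it in all 3 pairs.

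Taking single pairs, 6 junction probes passed in pair 1, all lower. That is 9.09%, beside 6.92% of all probes, 4.27% lower and 2.65% higher. In pair 2, 8 were higher and 6 lower, or 12.1% and 9.09%, beside 12.5% and 14.9% of all probes and 27.4% in either direction. In pair 3, 7 were higher and 12 lower, or 10.6% and 18.2%, beside 21.4% and 16.1%, and 37.5% in either direction. A ratio of 2-fold or more, up or down, was reached by 3, 3 and 6 junction probes in pairs 1, 2 and 3, beside 1.01%, 7.62% and 9.77% of all probes. The 6 probes of pair 1 belonged to 4 genes, CDH2, CDH11, CDH12 and CLDN11. These counts include EMBV3_11864 of CDH11 in pair 1 and the CDH17 probe in pairs 2 and 3, whose calls support nothing. Within pair 3, probes of the tight junction scaffold TJP1, the claudin CLDN11 and the catenin CTNNA1 rose while probes of F11R, CTNND1 and CDH2 fell. Of the CDH2 probes only EMBV3_06148 passed there, and the calls of TJP1 and CTNND1 were lost in the deposited values. Those of CLDN11, CTNNA1, F11R and EMBV3_06148 held, so that tight junction and adherens junction probes each went both ways.

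**Figure D4:**
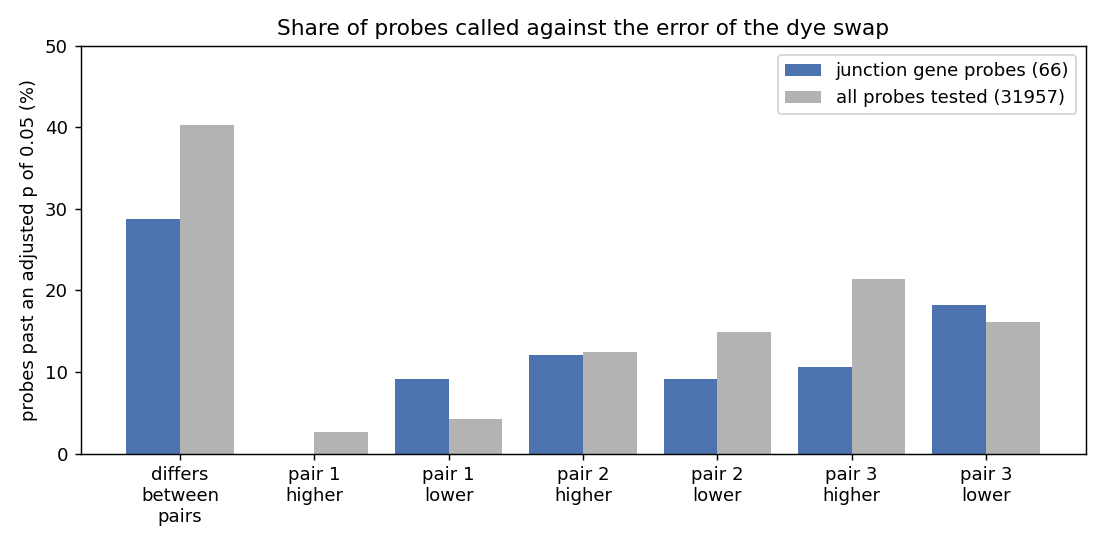
Share of probes past an adjusted p of 0.05 against the error of the dye swap (vertical axis, percent) for the 66 junction probes (blue) and all 31957 probes tested (grey). Of the junction probes, 28.8% differed between pairs beside 40.3% of all probes.

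A list of 80 symbols, mostly of other junction genes, held further scaffolds, polarity proteins, nectins, desmosomal cadherins, protocadherins and actin linkers. It had 65 genes with 100 probes on the array, of which 71 probes for 51 genes were tested. None passed for the mean of the pairs. VEZF1 and CTNNBL1, also on the list, are not junction genes, and a probe of each differed between pairs. Of these 71 probes, 31, or 43.7%, differed between pairs, near the 40.3% of all probes, and the median mean ratio was -0.0133. In pairs 1, 2 and 3, 2, 8 and 18 probes rose and 6, 16 and 13 fell, where 2.65%, 12.5% and 21.4% of all probes rose and 4.27%, 14.9% and 16.1% fell. Like CDH2, a probe of the protocadherin PCDH18 rose in pair 2 and fell in pairs 1 and 3, with 3.60, -0.49 and -0.92, and its other probes had 2.67 and 0.04 in pair 2. CTNNB1, beta-catenin, the partner of CTNNA1 at cadherins, had 0.49, -0.73 and 1.05 in pairs 1, 2 and 3, and the actin linker VCL had -0.36, 0.82 and 1.10. The brightest probe of CTNNA2, the alpha-catenin of neurons, rose in pair 1 with 1.14 and fell in pairs 2 and 3 with -0.81 and -2.14. LSR, a protein of tricellular tight junctions, had -0.16, -0.74 and -1.06.

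Some markers of cell types also had ratios that passed in single pairs, while no red cell probe did. In bulk samples, fewer cells of a type and less RNA per cell cannot be told apart. Of the 10 epithelial probes, 8 were tested and 2 rose in pair 2, where 12.5% of all probes rose. They were KRT8 with 5.23 and KRT18 with 2.15, beside the CDH2 ratio of 2.70 there. The summed epithelial level was 10.3, 13 and 12 in superstimulated cows 1, 2 and 3 and 10.4, 10.4 and 12 in the others. KRT8 carried most of this sum, with levels of 7.487, 12.733 and 11.520 in superstimulated cows and 7.494, 7.501 and 11.539 in the others, and the cows high for KRT8 were those high for CDH2. KRT18 reached 8.95 in superstimulated cow 2 and at most 7.43 elsewhere. The tested probes of KRT7, KRT19, ESRP1, ELF3 and GRHL2 lay between 6.62 and 7.46 in every cow. MUC1 exceeded the negative controls in 2 of 6 superstimulated channels and 1 of the others.

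Of the 12 theca and stroma probes, 11 were tested, and 3, 3 and 4 rose in pairs 1, 2 and 3 while 0, 2 and 1 fell. Of all probes, 2.65%, 12.5% and 21.4% rose in these pairs and 4.27%, 14.9% and 16.1% fell. LUM, a stromal proteoglycan, had -0.06, 4.02 and 4.38 and COL3A1, a fibrillar collagen, 1.01, -0.45 and 3.10, beside CLDN11 at -3.31, -0.90 and 5.77. Other markers of the list went otherwise in pair 3: the brightest PDGFRA probe fell with -1.11 (adjusted p = 0.000127), while COL1A1 had -0.25, ACTA2 0.06 and DCN 0.30. In pair 2, ACTA2, a smooth muscle actin, fell with -1.46 and DCN, a small proteoglycan, rose with 2.30. The summed level of that list was 13.7, 14.8 and 14.7 in superstimulated cows and 13.4, 12.5 and 12.7 in the others. That sum rested mostly on LUM, with levels of 11.80, 14.64 and 14.31 against 11.85, 10.62 and 9.93, on COL3A1 and on ACTA2, and the mean ratios of ACTA2 and INSL3 were -0.53 and -0.14. CYP17A1, the defining theca enzyme, exceeded the negative controls in 2 and 3 of 6 channels.

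Of the 13 granulosa probes, 12 probes of 8 genes were tested, and 8 probes exceeded the negative controls everywhere. Differences between pairs were called for 10 of the 12, or 83.3%. The share was 40.3% of all probes and 63% of all those above the negative controls everywhere. In pairs 1, 2 and 3, 5, 1 and 2 granulosa probes rose and 2, 5 and 5 fell. Of all probes, 2.65%, 12.5% and 21.4% rose in these pairs and 4.27%, 14.9% and 16.1% fell. The brightest probe of CYP19A1, aromatase, had -0.03, -1.36 and 0.51 in pairs 1, 2 and 3. Its other probes differed from it, with 0.47, -0.96 and -0.02 on EMBV3_36093 and 0.92, -0.13 and 0.007 on EMBV3_08064. On the brightest probe the level was 12.37, 10.54 and 8.38 in superstimulated cows and 12.40, 11.90 and 7.87 in the others. Both cows of pair 3 were thus low for CYP19A1, as for GJA1. GATM had -0.50, -0.68 and -3.67 and FSHR, the receptor of follicle-stimulating hormone, -0.18, -0.72 and -0.67. Other markers of this list rose in some pairs, INHA with 0.70, -0.29 and 1.41 and AMH with 0.89, 0.49 and -0.64. The summed level was 16.3, 15.9 and 16.2 in superstimulated cows 1, 2 and 3 and 16.1, 16.2 and 15.9 in the others. FOXL2 exceeded the negative controls in no channel. Among endothelial markers, TEK had -0.44, -0.44 and 0.12 and passed in pairs 1 and 2. KDR had 0.005, 0.70 and -0.40 and passed in pairs 2 and 3. The summed endothelial level was 10.3 to 10.4 in superstimulated and 10.3 to 10.5 in the other cows, with 5 of 11 probes tested and PECAM1 above the negative controls nowhere. Leukocyte probes summed to 11.8 to 12 and 11.7 to 12.8, with 5 of 11 tested, LYZ and ITGB2 nowhere, and PTPRC lower in pair 3 at -1.02. Oocyte probes summed to 10.6 in each superstimulated cow and 10.5 to 10.6 in the others, with 6 of 14 tested and GDF9 and DAZL nowhere. The 4 red cell probes summed to 8.92 to 9.13 and 8.99 to 9.13. Only 1 endothelial probe and no oocyte or red cell probe exceeded the negative controls everywhere. The sums add every listed probe, dim ones included, so that near equal sums do not show equal amounts of these cells. The part of these cell types in the junction ratios was not tested.

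In the authors' deposited values the differences between pairs were called less often, for 3291 of all probes and 6 junction probes, and these 6 were among the 19. They were both bright probes of CDH2, F11R, CLDN11, CTNNA1 and EMBV3_11864 of CDH11, the last of which supports nothing, as said above. Without pair 1, 10 junction probes differed between the other 2 pairs, all among the 19, with 15 and 21 called without pairs 2 and 3.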

How the data were processed

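Intensity was measured in 2 channels on 6 arrays. Per the labels' protocols, RNA was amplified in 2 rounds with T7 polymerase and labelled chemically with Cy3 and Cy5, which can distort levels of very small inputs. The deposited intensity values are foreground means and local background medians per spot, with no subtraction applied, as the file headers name them (deposited intensity); the image software is not named there. The authors' deposited log2 table, of unstated normalization and centring, was an alternative: it correlated with the red over green ratio of its own array at 0.739 to 0.868 (another array at most 0.335), and its column medians are -0.00433, -0.0115, -0.0348, -0.011, -0.00625 and -0.00797.

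Of 45220 spots, 8 unnamed and 42 ignored ones were left out, leaving 43753 probes. Normexp with an offset of 50, which pulls ratios of dim probes toward 0, and loess with 1417 control spots at weight 0 were applied with limma 3.58.1 in R 4.3.3. A probe was kept (31957) if on 3 or more arrays 1 or both channels exceeded the 95th percentile of the 756 negative controls. Levels came from separate channels after Aquantile. Figures used Python 3.11.15 and matplotlib 3.10.9.

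Per the design text each pair of cows was hybridised again with dyes exchanged, so a swap was averaged to 1 pair. For the groups, lmFit and eBayes tested the mean of these 3 ratios. A model of all 6 arrays, in which each pair and the dye had a coefficient, tested pairs singly and against each other. All p-values named adjusted are Benjamini-Hochberg over all probes kept, with a threshold of 0.05. Replicate cows are separate animals, per the same text. The steps were tested on simulated data.

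Members, gene lists and tests were chosen with earlier results of these data known. Named were the 10 junction probes with the largest mean, the smallest p for the mean or for pairs, those of 1 sign on all arrays or above the negative controls everywhere, and fixed genes; other junction genes and markers outside that rule were chosen after their values were seen. Symbols are the platform's, for 21790 of 43794 probes, and can be old; the other 22004 are unnamed here. For the lists, 20025 matched a RefSeq symbol (ARS-UCD2.0), 1524 a synonym and 241 neither.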

Additional observations from a re-analysis of the deposited data

Results flagged for a closer look

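For 9 junction probes every ratio on arrays 1 to 3 had one sign and every ratio on arrays 4 to 6 the other, and the term for dye and slide passed limma's test at an adjusted p of 0.05. That term is the log2 ratio shared by arrays 1 to 3 and turned on arrays 4 to 6, and it cancels in the mean of a pair. It was -1.58 for CLDN14 (adjusted p = 0.000896), 0.48 for the brightest GJA1 probe (0.00684), 0.33 for GJB5 (0.0114), 0.27 for GJD2 (0.00907), 0.23 for CDH18 (0.0173), -0.22 for CLDN4 (0.022), -0.20 for CLDN7 (0.026), -0.20 for GJB1 (0.022) and 0.19 for CLDN6 (0.0246). The term passed for 23 of 66 junction probes, or 34.8%, and for 35.1% of all probes. Dye and slide cannot be told apart in these arrays.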

How the results depend on the processing

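No alternative brought a junction probe past an adjusted p of 0.05 for the mean of the pairs. Over all probes the count of 0 was 8 with the 6 arrays as independent, and 2 with the cow pair as a random block (replicate block, correlation 0.255); in the other settings, the swapped dyes of the design text included, it was 0, with 1040 at an unadjusted p under 0.05 in the main setting. Junction probes at an unadjusted p under 0.05, 4 in the main setting, were 2 with median centring, 1 above the negative controls everywhere, 2 with the brightest probe per gene, 7 on arrays 1 to 3, 7 on arrays 4 to 6, 7 with 6 independent arrays, 0 when the cows were taken as unpaired and 0 to 3 without a pair. Probes that differ between pairs numbered 3291 in the deposited values and 6299 with the brightest probe per gene, which tests fewer, and 9451 to 10598 when 1 pair was left out. Junction probes among them, 19 in the main setting, were 6 by the deposited table and, leaving out 1 pair, 10 to 21. Junction probes called in pairs 1, 2 and 3 were 1, 3 and 6 in the deposited values, 3 and 9 in pairs 1 and 2 with the brightest probe, and 12 in pair 3 above the negative controls everywhere.

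Mean ratios turned on arrays 1 to 3 alone for CLDN14 (-1.03) and TJP1 (-0.021), and on arrays 4 to 6 alone for CDH2 (-0.098) and CDH24 (0.514). Without a pair, means ranged from -1.167 to 0.771 and from -0.544 to 1.393 for the CDH2 probes EMBV3_06148 and EMBV3_07839, -1.2 to -0.357 for CDH12, -0.735 to 0.157 for CDH24, -0.097 to 0.521 for CTNNA1, -2.107 to 2.436 for CLDN11, -0.12 to 0.414 for PKP2, -1.044 to 0.479 for F11R and -0.146 to 0.407 for TJP1. By the deposited table GJC1 had -0.028 in pair 3. The cause of these changes was not tested. Of 294 values of 18 means 282 kept their direction, of 326 values of 39 single pair calls 281 kept their call, and of 216 values of 19 differences between pairs 174 did. Keeping the ignored spots was chosen after seeing the data. Dim probes limit most claudins and connexins.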
